A study of Mus musculus with 20 samples.

Results

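A set of 10 recurrent driver genes of myeloid neoplasms was followed in mouse bone marrow that carried U2AF1(WT) or U2AF1(S34F) and was exposed to the splicing modulator sudemycin D6 or to vehicle. The genes were Tet2, Dnmt3a, Asxl1, Ezh2, Stag2, Bcor, Phf6, Nf1, Cbl and Npm1, picked by symbol because they are mutated again and again in myelodysplastic syndromes and acute myeloid leukaemia. All 10 symbols matched one Ensembl gene each among the 37620 genes counted. They held 748 of the 554616 splice junctions, and 92 of their splicing events, of 56451 in all genes, had enough reads to be tested in at least one comparison.

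RNA from whole bone marrow of 20 recipient mice was sequenced after ribosomal RNA depletion, with 5 mice in each of 4 groups. The U2AF1(WT) vehicle and U2AF1(WT) sudemycin groups had been transplanted with U2AF1(WT)/rtTA donor marrow, and the U2AF1(S34F) vehicle and U2AF1(S34F) sudemycin groups with U2AF1(S34F)/rtTA marrow. Every recipient had been irradiated before the transplant, had engrafted for at least 6 weeks, and received doxycycline chow (625 ppm) for 7 days, which switches the transgene on through the rtTA activator. Vehicle or sudemycin D6 was infused on 5 of these days. Donor marrow came from a few pooled animals per genotype, so the mice of a genotype are recipients of the same kind of pool and their spread is the spread between recipients. Control mice thus also expressed a U2AF1 transgene, doxycycline and transplantation were common to all groups, and the irradiated host can leave some blood and stromal cells of its own in the marrow.

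U2AF1 is the small subunit of the factor that reads the AG at the end of an intron. The S34F substitution lies in a zinc finger and is known to change which base is preferred just before that AG, with T being less well accepted. Sudemycin D6 binds SF3B1, a part of the U2 small nuclear ribonucleoprotein that settles on the branch point of the same intron end. The drivers act elsewhere. Dnmt3a adds methyl groups to cytosine and Tet2 oxidizes them. Ezh2 is the methyltransferase of Polycomb repressive complex 2, Asxl1 is the partner of the histone H2A deubiquitinase Bap1, Bcor is the core of a variant Polycomb repressive complex 1, and Phf6 is a chromatin and nucleolar zinc finger protein. Stag2 is a subunit of the cohesin ring. Nf1 switches Ras off and Cbl is a ubiquitin ligase that ends signalling from cytokine receptors. Npm1 is an abundant nucleolar chaperone.

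Gene counts per mouse summed to between 41145892 and 62138138, and junction counts to between 34384214 and 64813149. Levels are given as CPM, a gene's count relative to the library total after scaling by trimmed mean of M values. U2af1 itself spanned 34.8 to 48.3 CPM across U2AF1(WT) marrow and 46.4 to 58.0 across U2AF1(S34F) marrow (10 mice each), which does not check the substitution because both genotypes carry a transgene. The genotypes differed in sex-linked RNA. Xist was at 879 to 1593 CPM in every U2AF1(WT) mouse and at most 0.145 in U2AF1(S34F) mice, while 4 Y-linked genes together were at 190 to 257 CPM in U2AF1(S34F) mice and at most 0.0808 in U2AF1(WT) mice. Genotype and the sex of the cells therefore cannot be told apart in any comparison of genotypes, and Stag2, Bcor and Phf6 are themselves on the X chromosome. The marrow was rich in neutrophil RNA, with no marker of that list at 0 in any group. The 12 neutrophil markers summed to 64602 to 72495 CPM in U2AF1(WT) vehicle mice and 86371 to 140438 in U2AF1(S34F) vehicle mice (7 of 12 higher, 0 lower), and to 59946 to 104536 and 74387 to 121751 under sudemycin (4 of 12 higher). The 10 proliferation markers summed to 2478 to 4055 and 3821 to 4543 under vehicle (4 of 10 higher) and to 2652 to 3435 and 3887 to 4383 under sudemycin (8 of 10 higher). Across genotype under vehicle, genotype under sudemycin, the drug with U2AF1(WT), the drug with U2AF1(S34F), and U2AF1(S34F) sudemycin against U2AF1(WT) vehicle mice, in that order, the 10 B cell markers had 0, 5, 2, 2 and 10 lower and 0 higher throughout. The 10 erythroid markers had 1, 5, 0, 2 and 6 lower and 0 higher throughout. The 10 T and NK cell markers had 2, 5, 0, 3 and 7 lower and 3, 0, 0, 0 and 2 higher, and the 10 monocyte markers 4, 1, 0, 0 and 4 lower and 0, 3, 0, 1 and 2 higher. The 8 megakaryocyte markers had 2, 3, 0, 3 and 5 lower and 1, 0, 0, 0 and 1 higher, and the 10 stem and progenitor markers 1, 0, 3, 6 and 6 lower and 1, 1, 0, 0 and 0 higher. Of 8 markers of recipient stroma and endothelium, 7 could be tested, with 2, 1, 0, 1 and 3 lower and 1, 0, 0, 0 and 0 higher. In the last of these comparisons 7 of the 12 neutrophil and 10 of the 10 proliferation markers were higher and 0 lower. Of all genes tested, 19.8%, 19.6%, 1.89%, 5.85% and 25.1% were lower in the 5 comparisons, in the same order. The shares higher were 19.7%, 17.2%, 1.18%, 4.94% and 25.1%. Some of the marker counts lie near these shares, and no shift in a cell type is read from those. In whole marrow, fewer cells of a type and less RNA per cell cannot be told apart, and the part of these differences in the results on the driver genes was not tested.

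In mm9 the autosomal drivers were Tet2 at chr3:133126643-133207354 (minus strand), Dnmt3a at chr12:3806007-3914443 (plus strand), Asxl1 at chr2:153171581-153229743 (plus strand), Ezh2 at chr6:47480273-47545340 (minus strand), Nf1 at chr11:79153195-79395114 (plus strand), Cbl at chr9:43957345-44042129 (minus strand) and Npm1 at chr11:33052287-33063206 (minus strand). The X-linked ones were Stag2 at chrX:39502494-39630362 (plus strand), Bcor at chrX:11613866-11737481 (minus strand) and Phf6 at chrX:50265443-50310120 (plus strand).

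Splice acceptors of alternative exons described in the splicing results, called or not, are shown first. The base before the AG is the one that the S34F substitution is known to weigh. The 24-base Tet2 exon and the Nf1 pair of acceptors 3 bases apart, also described there, are not shown. Each of these acceptors had C before the AG. Each line gives the last 20 bases of the intron and the first 3 of the exon, 5′ to 3′ on the gene's strand in mm9, with the AG and the base before it in capitals.
Cbl, 132-base exon, chr9:43967189-43967211, minus strand: taacatctcgtcggttcTAGgtg
Cbl, 95-base exon, chr9:43964791-43964813, minus strand: ggccttttcttactttgCAGact
Nf1, 63-base exon, chr11:79276715-79276737, plus strand: tgctcatctctgttctgTAGgca
Bcor, 54-base exon, chrX:11632816-11632838, minus strand: tgcccattttaattacaTAGatg
Phf6, 102-base exon, chrX:50270323-50270345, plus strand: ttttcaaatgttatttaTAGctg
Asxl1, 59-base exon, chr2:153173697-153173719, plus strand: ttctaagtttctgtgtgCAGgtg
Ezh2, 126-base exon, chr6:47491967-47491989, minus strand: gtgctgttatctttactCAGacg
Ezh2, 82-base exon, chr6:47496827-47496849, minus strand: tttcccctctttgaaccAAGcca
Stag2, 111-base exon, chrX:39619523-39619545, plus strand: gaataaaattctccttgAAGcac

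Of the exons with a call in some comparison, the Cbl 132-base and Nf1 exons had T before the AG and the Cbl 95-base exon had C. Among these, the Cbl 132-base exon alone was called between genotypes. The Nf1 exon was called for the drug in U2AF1(S34F) marrow, and the Cbl 95-base exon for U2AF1(S34F) sudemycin against U2AF1(WT) vehicle mice. Of the exons with no call in any comparison, the Bcor and Phf6 exons had T. The Ezh2 126-base, Asxl1 and Tet2 exons had C, and the Ezh2 82-base and Stag2 exons had A. Among the 45 acceptors of cassette exons tested in the driver genes, 25 (55.6%) had T, 16 (35.6%) had C and 4 (8.89%) had A, where the 25708 acceptors of cassette exons tested in all genes had T in 35.5%, C in 57.3% and A in 6.74%. The donor of the Cbl 132-base exon is not a GT. Its last 3 exon bases and first 6 intron bases are shown with the first 2 intron bases in capitals, beside the same window of the Nf1 exon.
Cbl, 132-base exon, donor, chr9:43967054-43967062, minus strand: aagGCaaag
Nf1, 63-base exon, donor, chr11:79276795-79276803, plus strand: tcaGTaagt
The exons themselves read as follows, in lower case throughout.
Cbl, 132-base exon, chr9:43967060-43967191, minus strand: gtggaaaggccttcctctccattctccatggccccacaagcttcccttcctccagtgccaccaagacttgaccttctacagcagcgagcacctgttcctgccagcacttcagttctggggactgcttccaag
Nf1, 63-base exon, chr11:79276735-79276797, plus strand: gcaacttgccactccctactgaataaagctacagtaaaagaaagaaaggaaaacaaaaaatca

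Per kilobase of annotated exon, the 10 genes spanned a wide range of levels in U2AF1(WT) vehicle marrow (mean ± SD of RPKM from the rescaled counts, n = 5). Npm1 was at 91.8 ± 21.9 and Cbl at 81.4 ± 7.83, and their mice overlapped. Stag2 followed at 41.7 ± 3.75 and Asxl1 at 37.2 ± 3.57, which also overlapped. Tet2 was at 17.7 ± 1.77, Ezh2 at 11.9 ± 0.230, Bcor at 8.78 ± 0.456, Nf1 at 5.28 ± 0.586, Phf6 at 3.81 ± 0.313 and Dnmt3a at 3.02 ± 0.367, and each of these was separated from its neighbours in every mouse. The order of Phf6 and Dnmt3a depends on the merged exon length, 6833 bases for Phf6 and 16642 for Dnmt3a. In CPM, without the length, Dnmt3a lay above Phf6 in these mice (means of 50.2 and 26.1). The lowest count of any driver in any mouse was 882 reads, for Phf6. Npm1 has many processed pseudogenes, so part of its reads could have been placed elsewhere or gained from them.

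Between genotypes, 6 of the 10 drivers differed at FDR<10% under vehicle, and 39.5% of all genes tested did so. Dnmt3a, Cbl and Tet2 were lower and Stag2, Phf6 and Npm1 higher in U2AF1(S34F) marrow. Under sudemycin 6 of 10 again passed (36.8% of all genes), with Dnmt3a, Cbl and Nf1 lower and Stag2, Phf6 and Npm1 higher. Sudemycin changed 0 of 10 in U2AF1(WT) marrow (3.07% of all genes; Bcor alone had an unadjusted p under 0.05 in edgeR, and DESeq2 also called 0) and 1 of 10, Tet2, in U2AF1(S34F) marrow (10.8%). When U2AF1(S34F) sudemycin mice were set against U2AF1(WT) vehicle mice, 5 of 10 differed (50.2%), namely Dnmt3a and Cbl, lower, and Stag2, Phf6 and Npm1, higher. For the interaction of genotype and drug, 0 of 10 passed (0.013% of all genes, and 0 drivers by DESeq2; Tet2 had an unadjusted p of 0.010 and no other driver was under 0.05). The 2 shares are given side by side, and nothing particular to the drivers is read from them. The mice of the compared groups did not overlap at all for 3 drivers between genotypes under vehicle (20.2% of all genes), 3 under sudemycin (19.7%), 0 with the drug in U2AF1(WT) marrow (4.15%), 1 with the drug in U2AF1(S34F) marrow (7.8%) and 2 for U2AF1(S34F) sudemycin against U2AF1(WT) vehicle mice (24.2%). The median log2 fold change of all genes lay between -0.03 and 0.00 in the 5 comparisons of groups. These comparisons share groups with one another, so they do not repeat each other independently.

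**Figure D1:**
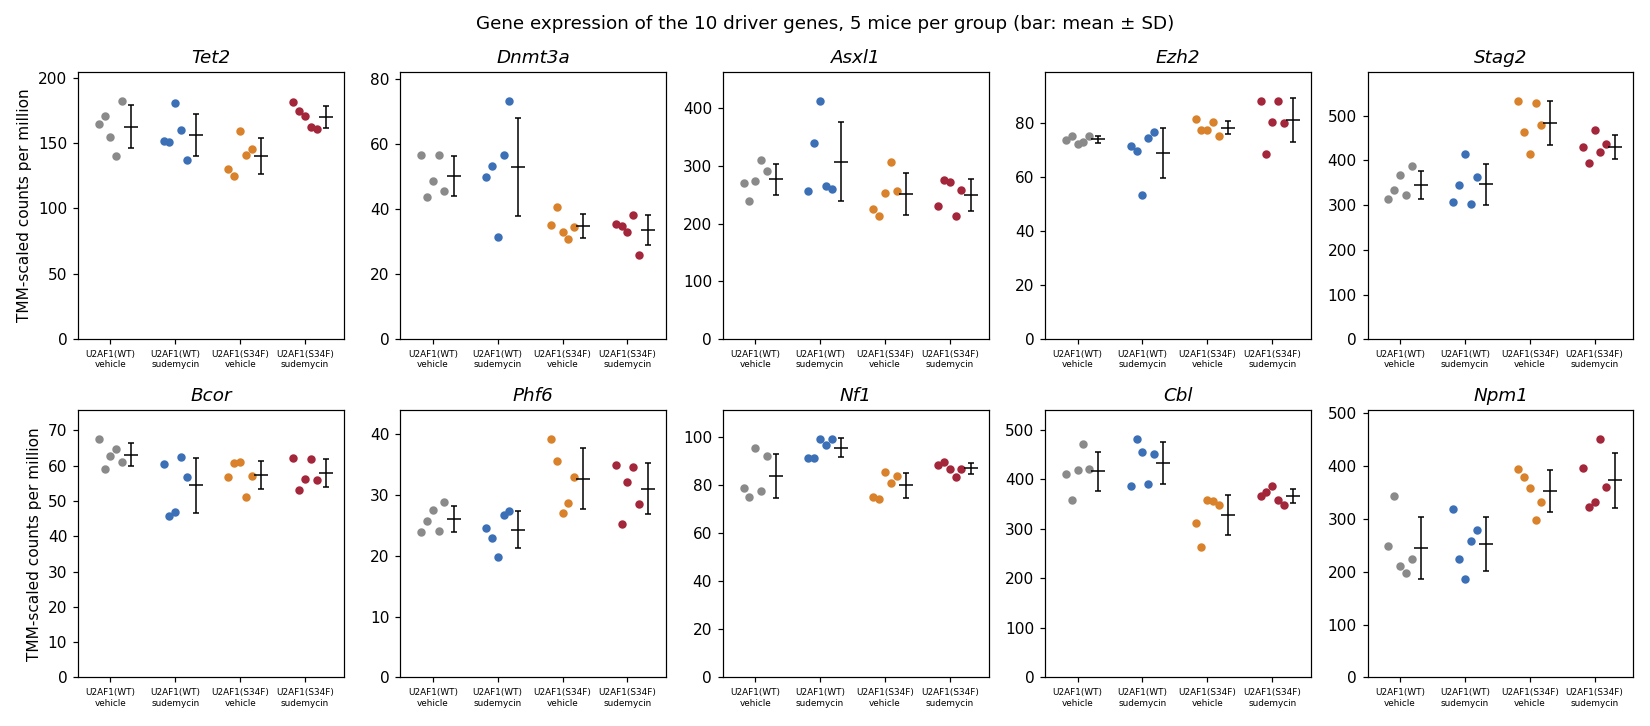
Expression of the 10 driver genes, in CPM (vertical axis), for each mouse (points) of the 4 groups (horizontal axis), with the group mean and SD (bar, n = 5). Dnmt3a lies lower and Stag2 higher in the U2AF1(S34F) vehicle mice than in every U2AF1(WT) vehicle mouse, and each axis starts at 0.

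Dnmt3a showed the largest fold change of any driver in each of the 2 comparisons of genotypes. Its CPM values were 56.6, 43.8, 48.6, 56.7 and 45.4 in the U2AF1(WT) vehicle mice and 34.9, 40.7, 32.9, 30.7 and 34.4 in the U2AF1(S34F) vehicle mice, with no overlap. Under sudemycin they were 49.7, 53.3, 31.4, 56.5 and 73.3 in U2AF1(WT) and 35.3, 34.8, 33.0, 38.0 and 25.8 in U2AF1(S34F) mice. The spread was widest in the U2AF1(WT) sudemycin group, where 1 mouse lay among the U2AF1(S34F) values and another was the highest of all 20. The log2 fold change was -0.55 ± 0.09 (SE; adjusted p = 0.0011) under vehicle and -0.67 ± 0.18 (SE; adjusted p = 0.017) under sudemycin. With the drug the log2 fold change of Dnmt3a was 0.06 (95% interval -0.29 to 0.40) in U2AF1(WT) marrow and -0.06 (95% interval -0.25 to 0.14) in U2AF1(S34F) marrow, neither of which passed the test.

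Tet2 was the 1 driver called for the drug. In U2AF1(S34F) marrow its CPM values were 130.3, 125, 159, 141 and 145 under vehicle and 181, 174, 171, 162 and 161 under sudemycin, so that every treated mouse lay above every untreated one. In U2AF1(WT) marrow they were 165, 171, 155, 139.8 and 183 under vehicle and 152, 151, 181, 159.8 and 137 under sudemycin, which overlapped. The log2 fold change with the drug was 0.27 ± 0.07 (SE; adjusted p = 0.046) in U2AF1(S34F) and -0.08 ± 0.10 (SE; adjusted p = 0.80) in U2AF1(WT) marrow, and the difference between these, the interaction, was 0.34 ± 0.12 (SE; adjusted p = 0.49). Leaving out U2AF1(S34F) vehicle mouse 1 or sudemycin mouse 2 gave adjusted p = 0.106 and 0.108. In the same comparison 6 of the 10 stem and progenitor markers were lower (5.85% of all genes), with sums of 183 to 244 CPM under vehicle and 153 to 193 under sudemycin. Other lists moved too. Lower were 3 of 8 megakaryocyte, 3 of 10 T and NK cell, 2 of 10 B cell, 2 of 10 erythroid and 1 of 7 stromal markers. Higher were 1 of 10 monocyte and 2 of 10 proliferation markers (4.94% of all genes). The part of these differences in the Tet2 result was not tested. Tet2 was also lower in U2AF1(S34F) than in U2AF1(WT) marrow under vehicle, with a log2 fold change of -0.23 ± 0.09 (SE; adjusted p = 0.080), a call that was lost (adjusted p = 0.101 to 0.178) when any of 8 of the 10 mice was left out, the exceptions being U2AF1(WT) vehicle mouse 4 and U2AF1(S34F) vehicle mouse 5.

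Of the Polycomb and chromatin drivers, Ezh2, Asxl1 and Bcor passed the test in 0 of the 5 comparisons. Ezh2 was nearly constant in U2AF1(WT) vehicle marrow (74.0 ± 1.42 CPM, SD, n = 5) and in U2AF1(S34F) vehicle marrow (78.4 ± 2.42). The log2 fold changes of Ezh2 over the 5 comparisons were -0.12 to 0.23, none past the test. Under other processing Ezh2 was called between genotypes under sudemycin in 2 of 19 alternatives. It was also called in 1 of 17 alternatives for U2AF1(S34F) sudemycin against U2AF1(WT) vehicle mice. Asxl1 had log2 fold changes of -0.30 to 0.13, none past the test, with values of 277 ± 26.5 and 307 ± 68.5 in the U2AF1(WT) vehicle and sudemycin groups and 251 ± 36.4 and 249.6 ± 27.2 in the U2AF1(S34F) groups. The log2 fold change of Asxl1 between genotypes was -0.15 (adjusted p = 0.30) under vehicle, where leaving out U2AF1(S34F) mouse 7 gave a call (-0.24, adjusted p = 0.080), as did the 3 mice of each genotype that share a number (-0.29, adjusted p = 0.044). Under sudemycin it was -0.30 (adjusted p = 0.12), and leaving out U2AF1(WT) mouse 6 or 12 gave a call (adjusted p = 0.081 and 0.093), as did 1 model of all 20 mice (adjusted p = 0.081). For U2AF1(S34F) sudemycin against U2AF1(WT) vehicle mice it was -0.15 (adjusted p = 0.20), with a call without U2AF1(WT) vehicle mouse 2 (-0.20, adjusted p = 0.068). Bcor, although X-linked, ranged from 54.5 ± 7.81 in U2AF1(WT) sudemycin mice to 63.1 ± 3.28 in U2AF1(WT) vehicle mice. Its log2 fold changes of -0.23 to 0.08 did not pass. Leaving out a single mouse could give a call for Bcor between genotypes under vehicle (adjusted p = 0.077). The same held for U2AF1(S34F) sudemycin against U2AF1(WT) vehicle mice (adjusted p = 0.093). Phf6 passed in 3 of the 5. Its CPM values were 24.0, 25.8, 27.6, 24.1 and 28.8 in U2AF1(WT) vehicle mice and 39.3, 35.6, 27.1, 28.6 and 33.0 in U2AF1(S34F) vehicle mice. They were 24.6, 22.9, 19.8, 26.7 and 27.4 in U2AF1(WT) and 34.9, 25.2, 32.2, 34.5 and 28.5 in U2AF1(S34F) mice under sudemycin. Most U2AF1(S34F) mice lay higher, with overlap in both treatments, and the log2 fold change was 0.31 ± 0.10 (SE; adjusted p = 0.031) under vehicle and 0.35 ± 0.11 (SE; adjusted p = 0.037) under sudemycin. In U2AF1(S34F) sudemycin against U2AF1(WT) vehicle mice Phf6 differed by 0.25 ± 0.10 (SE; adjusted p = 0.050), and leaving out U2AF1(WT) vehicle mouse 1 or 4 or U2AF1(S34F) sudemycin mouse 2 or 10 ended that call (adjusted p = 0.110 to 0.123).

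Stag2 separated the vehicle groups completely. Its CPM values were 313, 333, 367, 324 and 387 with U2AF1(WT), against 534, 464, 415, 528 and 478 with U2AF1(S34F). Under sudemycin they were 308, 345, 415, 303 and 362 in U2AF1(WT) and 430.5, 395, 467, 419.8 and 436 in U2AF1(S34F) mice, where 1 U2AF1(WT) mouse reached into the U2AF1(S34F) range. The log2 fold change was 0.48 ± 0.09 (SE; adjusted p = 0.0023) under vehicle and 0.31 ± 0.09 (SE; adjusted p = 0.028) under sudemycin. Over the 498 X-linked genes tested under vehicle, 128 were higher and 70 lower in U2AF1(S34F) marrow, with a median log2 fold change of 0.10, so Stag2 lay above the middle of its chromosome. Within U2AF1(S34F) marrow the log2 fold change of Stag2 with the drug was -0.17 ± 0.08 (SE; adjusted p = 0.20), which did not pass the test.

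Of the signalling drivers, Cbl differed by genotype. Its CPM values were 411, 359, 418, 472 and 421 in U2AF1(WT) vehicle mice and 312, 264, 359, 357 and 349 in U2AF1(S34F) vehicle mice. Under sudemycin they were 387, 482, 455, 389.8 and 451 in U2AF1(WT) and 366, 374, 386, 359 and 348 in U2AF1(S34F) mice. The genotypes did not overlap in either treatment, and the log2 fold change was -0.35 ± 0.11 (SE; adjusted p = 0.023) under vehicle and -0.24 ± 0.08 (SE; adjusted p = 0.038) under sudemycin. Leaving out U2AF1(WT) sudemycin mouse 8 or U2AF1(S34F) sudemycin mouse 12 gave adjusted p = 0.112 and 0.118. Against U2AF1(WT) vehicle mice, U2AF1(S34F) sudemycin mice were lower, with a log2 fold change of -0.18 ± 0.08 (SE; adjusted p = 0.069), a call that was kept only without U2AF1(WT) vehicle mouse 2 or U2AF1(S34F) sudemycin mouse 6 or 9 and otherwise lost (adjusted p = 0.106 to 0.145). Nf1 was at 83.6 ± 9.26 and 95.4 ± 4.01 CPM in U2AF1(WT) vehicle and sudemycin mice and at 79.7 ± 5.07 and 86.8 ± 2.35 in U2AF1(S34F) mice (SD, n = 5). Its log2 fold change between genotypes under sudemycin, -0.14 ± 0.06 (SE; adjusted p = 0.089), was lost without any of 9 of the 10 mice (adjusted p = 0.103 to 0.191), the exception being U2AF1(WT) sudemycin mouse 6.

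Npm1 was higher in U2AF1(S34F) marrow in both treatments. Its CPM values were 248, 344, 211, 197 and 224 in U2AF1(WT) vehicle mice and 395, 379.9, 359, 298 and 332 in U2AF1(S34F) vehicle mice, overlapping through 1 U2AF1(WT) mouse. Under sudemycin they were 318, 223, 185, 257 and 278 in U2AF1(WT) and 396, 323, 333, 451 and 361 in U2AF1(S34F) mice, with no overlap. The log2 fold change was 0.51 ± 0.14 (SE; adjusted p = 0.014) under vehicle, 0.56 ± 0.14 (SE; adjusted p = 0.014) under sudemycin and 0.61 ± 0.14 (SE; adjusted p = 0.0050) for U2AF1(S34F) sudemycin against U2AF1(WT) vehicle. With the drug the log2 fold change of Npm1 was 0.03 (95% interval -0.31 to 0.36) in U2AF1(WT) and 0.08 (95% interval -0.12 to 0.28) in U2AF1(S34F) marrow, and neither passed the test. The marker counts given above, of which neutrophil and proliferation markers were higher in the same comparisons, were not tested for their part in it.

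**Figure D2:**
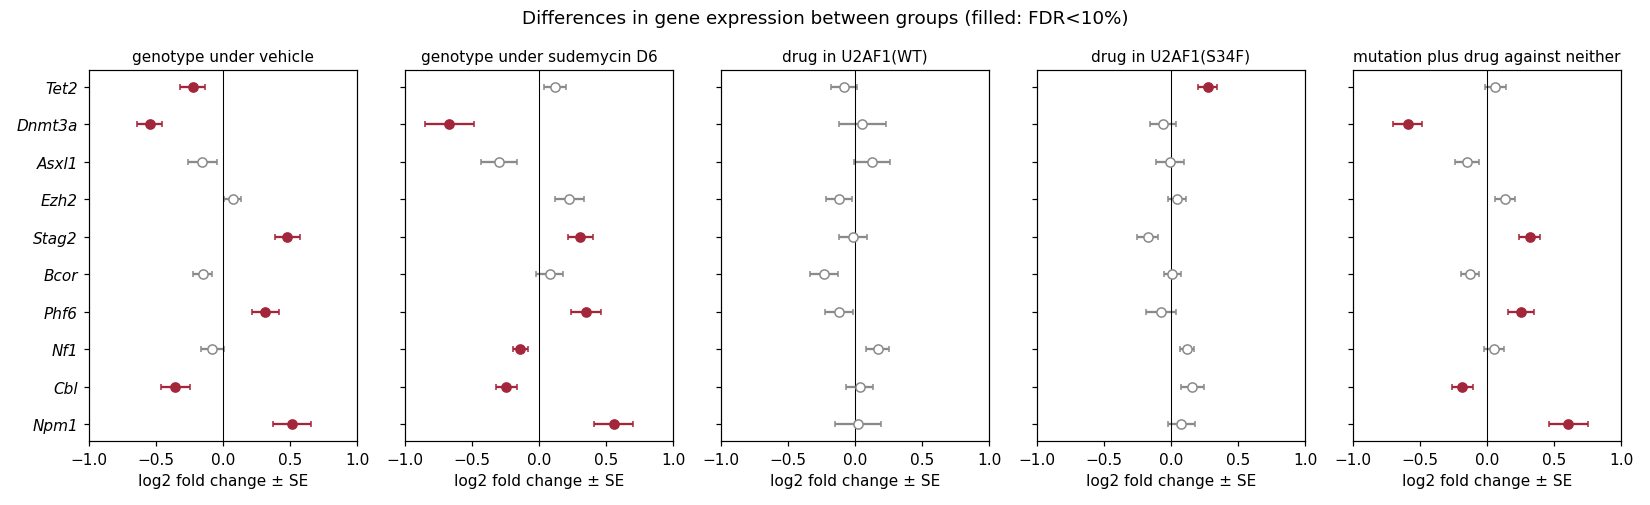
Log2 fold change and its SE (horizontal axis) of the 10 drivers (vertical axis) in each of the 5 comparisons (panels), filled where FDR<10%. The genotype panels hold 6 filled points each, the drug panels 0 in U2AF1(WT) and 1, Tet2, in U2AF1(S34F) marrow.

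For splicing, per cent spliced in (Ψ) was computed from junction reads. An event was called at FDR<10% with a change in Ψ over 1 point. Of the driver events tested, 2 of 70 were called between genotypes under vehicle (3.22% of the events of all genes) and 0 of 66 under sudemycin (3.15%). For the drug, 0 of 69 were called in U2AF1(WT) marrow (1.16%) and 2 of 75 in U2AF1(S34F) marrow (0.967%). U2AF1(S34F) sudemycin against U2AF1(WT) vehicle mice gave 1 of 79 (5.45%), and the interaction 0 of 68 (0.0114%). Where edgeR called 0, an unadjusted p under 0.05 was reached by 5 events between genotypes under sudemycin, 7 with the drug in U2AF1(WT) marrow and 5 in the interaction. With limma on Ψ, 0 driver events were called in any comparison, among 583, 724, 130, 229 and 1637 of all genes in the 5 comparisons in the same order, and the same 0 followed from an estimated dispersion, so each call below rests on the quasi-binomial form of the test.

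The 132-base exon of Cbl was called in more comparisons than any other driver event. Its acceptor and GC donor are shown above. It is exon 10 of 16 of the annotated coding transcript, holds codons 476 to 519 of 913, and lies behind the RING finger that carries the ligase activity. Skipping it keeps the reading frame. In U2AF1(WT) vehicle mice Ψ was 88.7%, 95.1%, 92.4%, 90.2% and 92.8%, and in U2AF1(S34F) vehicle mice it was 88.3%, 83.1%, 86.0%, 79.1% and 82.4%. Every U2AF1(S34F) mouse thus lay below every U2AF1(WT) mouse. The mean difference was -8.07 points (adjusted p = 0.0012). The exact permutation test over these mice gave p = 0.0079 (two-sided, not adjusted). That is the smallest value that 5 against 5 can give, and it restates the lack of overlap rather than adding to it. Under sudemycin Ψ was 96.4%, 93.0%, 90.8%, 94.0% and 94.8% in U2AF1(WT) and 92.1%, 88.4%, 89.5%, 93.1% and 87.2% in U2AF1(S34F) mice. These overlapped, and the genotype difference was -3.72 points (adjusted p = 0.20). Within U2AF1(S34F) marrow the exon was included more with the drug, by 6.31 points (adjusted p = 0.025), and within U2AF1(WT) marrow the difference was 1.95 points (adjusted p = 0.52). The interaction did not pass (adjusted p = 0.91). Between 1127 and 2278 reads per mouse informed this event. The call between genotypes held without any single mouse, while the call for the drug was lost without U2AF1(S34F) vehicle mouse 7 or sudemycin mouse 2 (adjusted p = 0.135 and 0.119). With limma on Ψ the adjusted p was 0.12 between genotypes and 0.31 for the drug.

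The junction that skips this exon is not in the annotation. It joined the donor of exon 9 to the acceptor behind the skipped exon, took 7.80% ± 2.27 of the reads at that donor in U2AF1(WT) vehicle mice and 16.6% ± 2.97 in U2AF1(S34F) vehicle mice, and 5.76% ± 2.09 and 10.4% ± 2.89 under sudemycin (SD, n = 5). It was seen in 20 of 20 mice, with 32 to 189 reads in each. The intron behind the skipped exon is 85 bases long and the one before it 4230 bases, in the same gene model. A second Cbl exon, of 95 bases (codons 646 to 677), was included at 98.5% ± 0.885 in U2AF1(WT) vehicle and 99.7% ± 0.158 in U2AF1(S34F) sudemycin mice, a difference of 1.14 points (adjusted p = 0.081) that was called but lost without any of 6 of the 10 mice (adjusted p = 0.153 to 0.209), namely U2AF1(WT) vehicle mouse 1 or 3 or U2AF1(S34F) sudemycin mouse 2, 6, 9 or 10.

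The 63-base exon of Nf1 had the largest change in Ψ among the called events. It holds codons 1373 to 1393 of 2841, within the domain that stimulates the GTPase of Ras, and is the long-known alternative exon there. The form without it is the more active of the pair towards Ras. In vehicle mice Ψ was 43.0%, 46.0%, 56.5%, 27.9% and 45.1% in U2AF1(WT) and 27.1%, 28.6%, 15.1%, 41.2% and 25.5% in U2AF1(S34F) marrow. In sudemycin mice it was 56.1%, 52.0%, 69.2%, 62.1% and 61.4% in U2AF1(WT) and 58.5%, 45.7%, 51.8%, 43.8% and 33.9% in U2AF1(S34F) marrow. The 4 groups thus ran from 27.5% ± 9.31 (SD, n = 5) in U2AF1(S34F) vehicle mice through 43.7% ± 10.3 in U2AF1(WT) vehicle mice and 46.7% ± 9.19 in U2AF1(S34F) sudemycin mice to 60.2% ± 6.54 in U2AF1(WT) sudemycin mice, and each group overlapped the next. With the drug, Ψ differed by 19.2 points (adjusted p = 0.099) in U2AF1(S34F) marrow, which was called, and by 16.4 points (adjusted p = 0.48) in U2AF1(WT) marrow, which was not. Between genotypes the difference was -16.2 points (adjusted p = 0.19) under vehicle and -13.4 points (adjusted p = 0.40) under sudemycin. The interaction was 2.79 points (adjusted p = 0.97). Exact permutation tests over the mice gave p = 0.016 and 0.024 for the drug in U2AF1(S34F) and U2AF1(WT) marrow and 0.024 and 0.032 for genotype under vehicle and sudemycin (two-sided, 5 against 5, not adjusted). Between 66 and 156 reads per mouse informed this exon. The call for the drug stood close to the threshold and was lost without any of 8 of the 10 mice (adjusted p = 0.114 to 0.338), the exceptions being U2AF1(S34F) vehicle mouse 7 and sudemycin mouse 12.

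Stag2 differed between genotypes in the use of its first exons. Of the reads that enter the shared acceptor at chrX:39555032, those from the first exon that ends at position 39504265 made up 5.70%, 5.82%, 5.10%, 5.97% and 3.74% in U2AF1(WT) vehicle mice and 7.77%, 11.6%, 12%, 8.41% and 9.69% in U2AF1(S34F) vehicle mice, with no overlap. Under sudemycin they made up 5.67%, 2.53%, 5.58%, 6.57% and 3.83% in U2AF1(WT) and 6.71%, 9.37%, 7.95%, 8.28% and 6.59% in U2AF1(S34F) mice, again without overlap. The difference between genotypes was 4.62 points (adjusted p = 0.021) under vehicle, which was called, and 2.94 points (adjusted p = 0.25) under sudemycin, which was not. Without U2AF1(WT) vehicle mouse 5 the adjusted p under vehicle was 0.105. Most reads came from the first exon that ends at 39504011, at 82.8% ± 1.35 in U2AF1(WT) vehicle and 78.5% ± 4.45 in U2AF1(S34F) vehicle mice. The gene is X-linked and its level differed between the same groups, so genotype and the sex of the cells cannot be told apart here either. The 111-base exon near the end of Stag2 (codons 1156 to 1193 of 1268) differed by -1.29 to 1.02 points over the 5 comparisons, with 18.8% ± 1.91, 18.3% ± 1.60, 19.8% ± 1.55 and 18.6% ± 1.1 in the U2AF1(WT) vehicle and sudemycin and the U2AF1(S34F) vehicle and sudemycin groups and 1008 to 2705 reads per mouse.

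**Figure D3:**
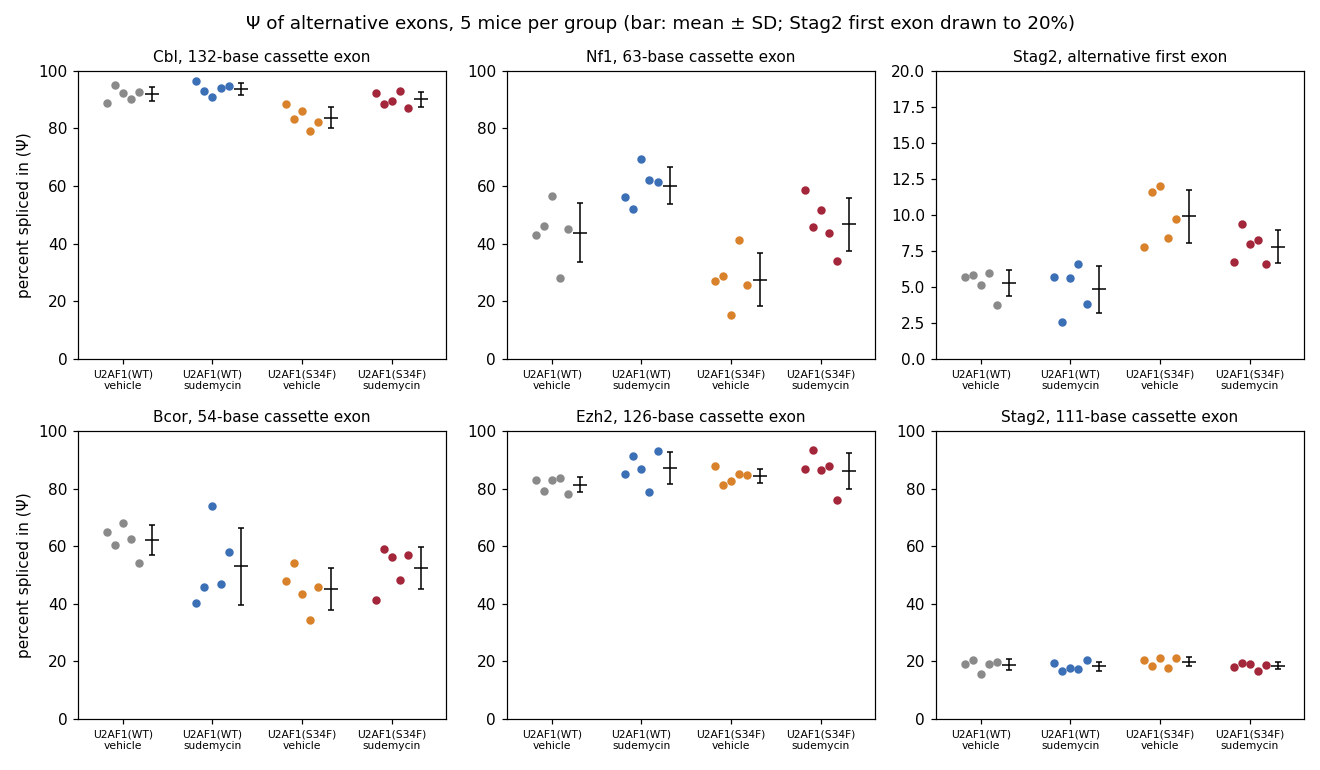
Per cent spliced in (Ψ, vertical axis) of 6 alternative exons in each mouse (points) of the 4 groups (horizontal axis), with the group mean and SD (bar, n = 5). The Cbl exon is lowest in U2AF1(S34F) vehicle mice, the Nf1 exon is higher with sudemycin in both genotypes with overlap between mice, and the Stag2 111-base exon stays near the same level in all groups. The Stag2 first exon is drawn on an axis to 20%.

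The events of Bcor, Ezh2 and Npm1 described next were not called. Bcor included its 54-base exon (codons 1005 to 1022) at 62.1% ± 5.19 in U2AF1(WT) vehicle mice and 45.2% ± 7.24 in U2AF1(S34F) vehicle mice, a difference of -16.9 points (adjusted p = 0.12). Under sudemycin the values were 53.0% ± 13.4 and 52.4% ± 7.39. Ezh2 included its 126-base exon, which encodes part of the cysteine-rich stretch before the catalytic SET domain, at 81.4% ± 2.61 and 87.1% ± 5.63 in U2AF1(WT) vehicle and sudemycin mice and 84.3% ± 2.52 and 86.1% ± 6.34 in U2AF1(S34F) mice. The 82-base Ezh2 exon, picked for description after its values were seen, occurs in the annotation only in transcripts marked for nonsense-mediated decay. Its Ψ was 4.84% ± 2.35, 3.35% ± 2.71, 4.8% ± 0.661 and 4.84% ± 1.73 in the same order, and it differed by -1.5 to 1.5 points over the 5 comparisons. Npm1 used an alternative last exon at 16.2% ± 2.08, 17.4% ± 2.24, 17% ± 0.754 and 16.3% ± 1.01, with 1744 to 6202 reads per mouse.

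Dnmt3a, Asxl1, Phf6, Nf1 and Tet2 also had events that were not called. Dnmt3a used the first exon that ends at chr12:3891860 at 2.60% ± 2.73 in U2AF1(WT) vehicle and 15.4% ± 5.26 in U2AF1(S34F) vehicle mice, without overlap and with 52 to 105 reads per mouse, but the difference of 12.8 points (adjusted p = 0.13) did not pass. The same first exon stood at 18.4% ± 19.6 in U2AF1(WT) sudemycin mice, where 1 mouse reached 51.2% on 41 reads, and at 7.08% ± 3.62 in U2AF1(S34F) sudemycin mice. For a 59-base exon near the start of Asxl1, known from a non-coding transcript, Ψ was 21.5% ± 8.41, 20.6% ± 6.69, 24.9% ± 2.92 and 29.0% ± 6.11 in the U2AF1(WT) vehicle and sudemycin and U2AF1(S34F) vehicle and sudemycin mice. This Ψ averages the junctions on either side of the exon. Reads also entered its acceptor from unannotated donors at chr2:153173268 (33.6% of the reads there) and 153172504 (23.1%). The values thus mix inclusion after the upstream exon with entry from other donors. For the 102-base exon 3 of Phf6 (codons 47 to 80), Ψ was 77.7% to 86.7% in the group means. The skipping junction of this event, from chrX:50265613, also leaves out the 184-base exon 2. The junction from 50265613 straight to exon 3 took 1.65% of the reads at that acceptor. This Ψ is therefore not the inclusion of exon 3 alone. Nf1 used the upstream of a pair of acceptors 3 bases apart at 79.8% to 86.8%. Tet2 had at most 36 reads in any mouse for its 24-base exon (codons 1181 to 1189), and 4 mice had none.

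Reads on junctions outside the annotation were a small part of all junction reads. As group means they made up 0.190% to 0.247% in Stag2, 0.174% to 0.282% in Npm1, 0.110% to 0.752% in Phf6, 0.442% to 0.694% in Bcor, 0.742% to 0.972% in Ezh2, 0.661% to 1.31% in Dnmt3a, 0.968% to 1.58% in Cbl, 2.58% to 3.09% in Tet2, 2.61% to 2.99% in Nf1 and 2.91% to 3.82% in Asxl1. Their share changed in 0 of the 8, 7, 8, 8 and 9 drivers that could be tested in the 5 comparisons (3.49%, 3.39%, 0.772%, 0.639% and 8.56% of all genes). Unadjusted, 1, 0, 0, 1 and 1 of them had p under 0.05 in edgeR, and limma on the share also called 0. The closest was Cbl (adjusted p = 0.12). Its share was 1.58% ± 0.235 in U2AF1(S34F) vehicle and 1.05% ± 0.223 in U2AF1(S34F) sudemycin mice (SD, n = 5). Of a mean of 185 unannotated Cbl reads per mouse, 85 were on the junction described above that skips the exon with the GC donor. The Cbl share thus counts reads of that splicing event again and is not a separate result. Elsewhere the most used unannotated junction was in Nf1, from chr11:79341927 to an annotated acceptor at 79349105, with 91.1 reads per mouse and 59.4% of the reads at that acceptor. Its share was 61.0% ± 10.5 and 65.7% ± 7.47 in U2AF1(WT) vehicle and sudemycin mice and 59.8% ± 15 and 51.9% ± 7.16 in U2AF1(S34F) mice, and it was seen in 20 of 20 mice. A Stag2 junction from the main first exon to an unannotated acceptor at chrX:39520885 took 0.902% ± 0.839 of the reads at its donor in U2AF1(WT) vehicle mice and 3.24% ± 1.35 in U2AF1(S34F) vehicle mice, against 1.48% ± 1.03 and 1.55% ± 0.501 under sudemycin, with at most 40 reads in a mouse.

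The partners of the drivers were read from 10 lists. Under vehicle, 19.7% of all genes were higher and 19.8% lower in U2AF1(S34F) marrow. Of 10 cohesin partners of Stag2, 6 were higher and 0 lower (median log2 fold change 0.17), among them Smc3, a core arm of the ring (0.37 ± 0.08, SE), and Stag1, the paralogue of Stag2 (0.31 ± 0.07). Of 9 nucleolar partners of Npm1, 4 were higher and 0 lower (median 0.21), among them the exportin Xpo1 (0.58 ± 0.12) and the box C/D protein Nop58 (0.51 ± 0.13). Of 10 partners of Asxl1 and Bap1, 0 were higher and 5 lower (median -0.25), among them Mbd6 (-1.30 ± 0.25). Beside Ezh2, 5 of 10 partners of Polycomb repressive complex 2 were higher and 2 lower, with Mtf2 at 0.46 ± 0.09 and Phf1 at -0.74 ± 0.20, 2 Polycomb-like proteins that differed in opposite directions. Of 19 other recurrent myeloid drivers, 2 were higher and 11 lower (median -0.22), with U2af1 at 0.48 ± 0.07, Gata2, a stem cell factor, at -1.19 ± 0.23 and Notch1 at -0.96 ± 0.14. U2af1 stays in this list in every comparison although both genotypes carried a U2AF1 transgene, whose part in its count was not tested. Every median here is set beside that of all genes, 0.00.

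The remaining lists were mixed under vehicle. Of 10 genes of DNA methylation and demethylation, 2 were higher and 2 lower, with Tet3, the paralogue of Tet2, at -0.77 ± 0.12 and Idh1, a source of the cofactor of the Tet enzymes, at 0.35 ± 0.11. Of 10 genes of the Bcor complex, 2 were higher and 2 lower, with Bcorl1, the X-linked paralogue of Bcor, at -0.92 ± 0.16 and Skp1a at 0.53 ± 0.08. Of 10 partners of Phf6, 1 was higher and 4 lower, with the deacetylase Hdac2 at 0.42 ± 0.07 and Gatad2b at -0.93 ± 0.15. Of 11 genes of the Ras pathway, 1 was higher and 2 lower, with the Ras inhibitor Spred2 at -0.60 ± 0.16. Of 12 relatives, adaptors and substrates of Cbl, 1 was higher and 4 lower, with the receptor Csf1r at -0.85 ± 0.13. These values are log2 fold changes ± SE.

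Under sudemycin, 17.2% of all genes were higher and 19.6% lower in U2AF1(S34F) marrow. The cohesin list had 8 of 10 higher and 1, the loader Mau2, lower (-0.27 ± 0.09), the Npm1 list 3 of 9 higher and 0 lower, the Asxl1 list 0 higher and 4 of 10 lower, and the list of other drivers 2 of 19 higher and 5 lower. The Ezh2 list had 4 of 10 higher and 1 lower, the methylation list 3 and 2 of 10, the Bcor list 2 and 3 of 10, the Phf6 list 1 and 5 of 10, the Ras list 0 and 2 of 11, and the Cbl list 0 and 4 of 12. With the drug in U2AF1(WT) marrow (1.18% of all genes higher, 1.89% lower), the Ras list had 2 of 11 higher and 0 lower, the methylation list 1 of 10, the Cbl list 1 of 12 and the list of other drivers 1 of 19 lower and 0 higher, and the other lists 0 in either direction. Rasa2, a Ras GTPase-activating protein, had a log2 fold change of 0.56 ± 0.13. Tet1, Flt3 and Gata2 had log2 fold changes of -0.86 ± 0.20, -0.66 ± 0.13 and -1.02 ± 0.22. With the drug in U2AF1(S34F) marrow (4.94% higher, 5.85% lower), the Ezh2 list had 2 of 10, the methylation list 1 of 10 and the Cbl list 3 of 12 lower and 0 higher, the Ras list 1 of 11 higher and 1 lower, the list of other drivers 2 of 19 higher and 0 lower, and the other lists 0 in either direction. The splicing factor Prpf8 (0.25 ± 0.06) and the helicase Ddx41 (0.17 ± 0.05) were higher. Tet1 (-0.60 ± 0.16), Mtf2 (-0.23 ± 0.07), Phf1 (-0.26 ± 0.08), Kit (-0.57 ± 0.10), Epor (-1.26 ± 0.41) and Rasa1 (-0.17 ± 0.06) were lower, beside the fall in stem and progenitor markers given with Tet2. For U2AF1(S34F) sudemycin against U2AF1(WT) vehicle mice (25.1% of all genes higher, 25.1% lower), 7 of 10 cohesin partners and 5 of 9 Npm1 partners were higher and 0 lower, while 5 of 10 Asxl1 partners were lower and 0 higher. The counts higher and lower were 6 and 2 of 10 in the Ezh2 list, 2 and 3 of 10 in the methylation list, 2 and 2 of 10 in the Bcor list, 2 and 4 of 10 in the Phf6 list, 2 and 1 of 11 in the Ras list, 1 and 9 of 12 in the Cbl list, and 5 and 10 of 19 among the other drivers.

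**Figure D4:**
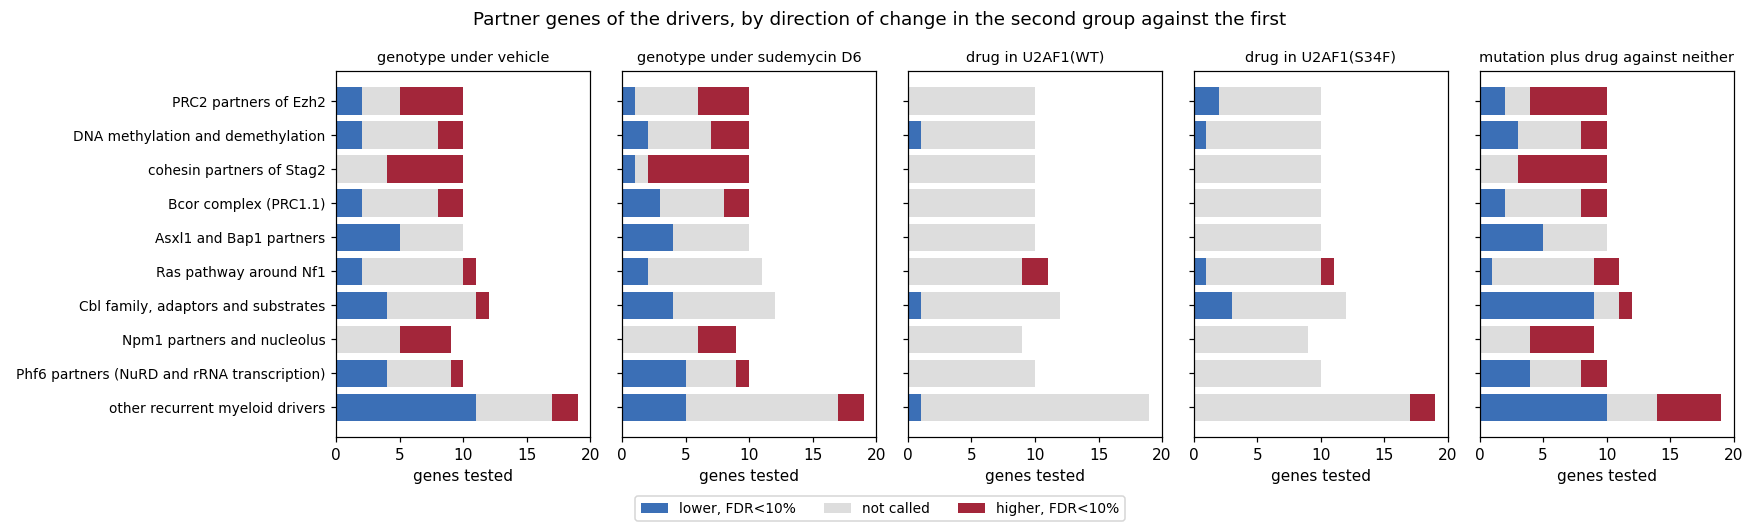
Number of genes tested (horizontal axis) in each of 10 partner lists (vertical axis) that were lower, not called or higher at FDR<10% in the second group of each comparison (panels). The cohesin and nucleolar lists hold no lower gene under vehicle, the Asxl1 list no higher one, and the drug panels are mostly uncalled.

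Once the group means were removed, the drivers varied together from mouse to mouse in patterns that are given here as a description over 20 mice, where all genes of a mouse share its library and depth. The genes most like Npm1 were the chaperonin subunits Tcp1 (Pearson's r = 0.98) and Cct8 (r = 0.97). Those most like Asxl1 were Zfp516 and Rcsd1 (r = 0.97 and 0.96), those most like Cbl Atxn7l1 and Brd3 (r = 0.96 and 0.94), and those most like Phf6 the splicing regulator Tra2b and Trim59 (r = 0.95 and 0.95). Bcor went with Bend3 and Itfg2 (r = 0.94 and 0.94), Stag2 with Azin1 and Osbpl8 (r = 0.91 and 0.90), Dnmt3a with Zfp362 and Kcnj10 (r = 0.91 and 0.89), Ezh2 with Lsm12 and Eif4g2 (r = 0.89 and 0.88), Tet2 with Birc6 and Bmpr2 (r = 0.84 and 0.83) and Nf1 less closely with 1110021J02Rik (r = 0.79). Among the drivers themselves, Asxl1 and Npm1 ran in opposite directions (r = -0.89), as did Asxl1 and Bcor (r = -0.74), while Ezh2 and Phf6 ran together (r = 0.71).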

How the data were processed

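RNA from bone marrow of 20 mice in 4 groups of 5 was analysed from the tables the authors deposited, which hold raw read counts per Ensembl gene and raw read counts per splice junction, without normalization and with 1 column per mouse. The submitters' processing notes name TopHat2 2.0.8, SAMtools and mm9, and the program that counted reads on genes is not given in the sources used here. Gene counts per mouse summed to between 41145892 and 62138138, and no 2 of the 190 pairs of mice held identical values. Groups were taken from the sample labels.

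Genes were tested with edgeR 4.0.16 (R 4.3.3; quasi-likelihood test, low-count filter by expression, trimmed mean of M values, prior count 2) on the 10 mice of each comparison, with Benjamini-Hochberg adjustment over all genes tested and FDR<10%. The interaction was tested in 1 model of 20 mice. Splicing events were built from junctions with annotated splice sites and GENCODE exons of the mm9 assembly. Inclusion and exclusion reads were tested in edgeR with 1 coefficient per mouse and dispersion 0, a quasi-binomial form, with adjustment within each of 6 event types, FDR<10% and a change in Ψ over 1 point. Events needed a mean of 10 reads per mouse and 1 read on each isoform. The same form was used for the share of reads on unannotated junctions (at least 10 per mouse). Adjusted p-values in the text are from edgeR unless limma 3.58.1 or DESeq2 1.42.0 is named. RPKM values used the merged exonic length of each gene. Sequences were read from the mm9 reference with pysam 0.24.0.

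All 10 drivers were named. From each partner list, up to 2 called genes per direction with the largest absolute fold change were eligible. Every called driver event was named, and for each driver the alternative event with the most reads and a minor isoform of at least 5%; other events in the text were chosen after their values were seen. Up to 2 unannotated junctions per driver with a mean of 5 reads, and the 3 genes most alike, were eligible. The members, lists and dispersion were chosen with earlier results of these data known. One symbol of the lists was not found among the gene names. Some eligible genes of the lists are not reported here by name.

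On simulated counts for the comparison of genotypes under vehicle, with 200 of 14817 genes changed 2-fold, the gene test recovered 74% and 8.642% of its calls were false. In the data the largest log2 fold change of a driver in this comparison was smaller, -0.55 for Dnmt3a, and 39.5% of all genes were called. With 200 of 25683 cassette events changed by 15 points of Ψ, the event test recovered 29% and 7.937% were false. Here Ψ was the plain share of inclusion reads, and the spread between mice was set to the same fixed value for every event. The changed events were drawn from those of intermediate inclusion, and the Cbl exons called here lay above that range. These shares therefore need not hold for the driver genes and events called here. Alternatives covered normalization, filters, thresholds, the test, the dispersion, autosomal genes alone, 1 model of 20 mice, a block for the replicate number and the omission of single mice.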

Additional observations from a re-analysis of the deposited data

Results flagged for a closer look

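Among 89 groups of 5 mice, over driver genes and named events, 1 held a mouse that stood apart by Dixon's criterion, where chance gives about 1 in 20. Ψ of the event at the 102-base exon of Phf6, whose skipping junction also leaves out exon 2, was 92.6% in U2AF1(S34F) sudemycin mouse 10. The next highest mouse of that group was at 83.4%. The gap was 0.839 of the range of the group. This event was called in 0 comparisons by edgeR.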

How the results depend on the processing

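Over 27 gene results and 484 alternatives, 421 kept their direction and side of the threshold, 49 kept their direction but lost the call, 14 gained one and 0 reversed. Over 14 event results and 256 alternatives the counts were 209, 35, 10 and 2. The 2 reversed values were both for an alternative last exon of Cbl, uncalled between genotypes under vehicle (0.403 points), at -0.524 points on the mice with shared numbers, with the replicate block and without it, and at 1.13 points, called, without U2AF1(WT) vehicle mouse 5. For driver genes, autosomal genes alone left 3 calls for mutation plus drug, since Stag2 and Phf6 are X-linked. For splicing events, limma on Ψ and an estimated dispersion each left 0 calls for genotype under vehicle, for the drug in U2AF1(S34F) marrow and for mutation plus drug. A change in Ψ over 5 points left 1 for genotype under vehicle and 0 for mutation plus drug, FDR<5% left 1 for the drug in U2AF1(S34F) marrow and 0 for mutation plus drug, and 1 model of 20 mice left 1 for the drug in U2AF1(S34F) marrow. With at least 30 unannotated reads per mouse, 1 driver, Cbl, was called for the drug in U2AF1(S34F) marrow. That share includes the reads that skip the Cbl exon with the GC donor, so it is not separate from that event. The cause was not tested in any of these.

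Without each mouse in turn, the drivers called numbered 5 to 6 for genotype under vehicle, 4 to 7 under sudemycin, 0 to 0 for the drug in U2AF1(WT) marrow, 0 to 2 in U2AF1(S34F) marrow and 3 to 7 for mutation plus drug. Events called numbered 2 to 3, 0 to 1, 0 to 0, 0 to 2 and 0 to 2 in the same order, and drivers with a changed unannotated share 0 to 1 for mutation plus drug and 0 to 0 elsewhere.

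Mice of different genotypes that share a number in the labels did not all deviate together. The correlations of their deviations were 0.11, 0.16 and -0.088 under vehicle and 0.0048, 0.22, 0.32 and -0.16 under sudemycin, so the number was not taken as a pairing. With the number as a replicate block, on the mice that share one, 6 drivers were called for genotype under vehicle and 2 under sudemycin, where the same mice without the block gave 3. Events called under vehicle were 0 with the block and 1 without it, a comparison added after the data were seen. No paired analysis was possible for the drug and for mutation plus drug because those groups share fewer than 2 numbers.

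The 24-base exon of Tet2 had 0 to 36 reads per mouse, the Dnmt3a first exon 40 to 119, the Nf1 exon 66 to 156 and the Bcor exon 123 to 249, so a missing call there does not show an absent difference.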
